A study of Mus musculus with 4 samples.

Results

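The Wnt genes described here are the ligands, R-spondins, receptors, secreted inhibitors, and cytoplasmic and nuclear components of the pathway, taken by symbol from the array annotation. The rule matched the numbered genes of the Wnt, Fzd, Sfrp, Dkk, Rspo, Dact, Dvl, Axin and Nkd families and a set of further symbols. It found 62 genes of 14860 with a probe set of their own, each through 1 probe set. Lgr4, Lgr6 and Tcf7 have no probe set named for them alone and are not analysed here, and Dkk1 shares its probe set with other symbols and was left out.

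RNA came from Flk-1-positive cells sorted on day 3 of mouse embryonic stem (ES) cell differentiation in serum, and each of 4 groups had 1 array. Flk-1, encoded by Kdr, is the VEGF receptor of the mesoderm that gives rise to blood and vessels, and ER71, encoded by Etv2, is an ETS transcription factor needed for both. The groups were the iER71 line, labelled wild-type in genotype, treated with doxycycline (1 mg/ml, from day 2 until sorting on day 3), and the same line left untreated, then Er71-/- cells and wild-type cells. All ES cells had been kept on embryonic fibroblast feeders with LIF before differentiation. The sources used here do not describe the iER71 construct, the number of clones or any pooling of cultures. The labels of the iER71 arrays oppose each other. The array whose source and characteristics give doxycycline is titled control, and the array given as untreated is titled ER71 overexpressed. The arrays are called here by their doxycycline labels, and by the titles each difference between them would have the opposite sign.

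Wnt ligands are secreted lipid-modified proteins that bind Frizzled receptors together with the co-receptors Lrp5 and Lrp6. In the canonical branch this keeps β-catenin (Ctnnb1) from destruction by a complex of Axin, Apc and Gsk3b, and β-catenin then acts with the nuclear factors of the Lef and Tcf family. Wnt signalling is required for the primitive streak and for mesoderm to form in the mouse embryo, and a non-canonical branch, with Wnt5a among its ligands, acts on cell polarity and movement.

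Etv2 had log2 intensities of 10.50 with doxycycline and 10.05 without it, and of 8.89 in Er71-/- and 9.39 in wild-type cells. It was thus higher on the array with doxycycline, the one titled control, and neither difference reached 2-fold. Whether its probes read the deleted exons or the induced transcript is not known here, so Etv2 tests the labels only weakly. Kdr lay between 9.67 and 10.19 on the 4 arrays. The 6 endothelial markers Pecam1, Cdh5, Tek, Emcn, Erg and Sox17 were all at least 2-fold higher with doxycycline, with a summed intensity of 5365 against 1275 without it. Against wild type in place of untreated iER71 cells, Cdh5, Tek, Emcn and Sox17 were still at least 2-fold higher with doxycycline. Pecam1 and Erg were then 1.12-fold and 1.41-fold higher. Pecam1 was also 2.80-fold lower in untreated iER71 cells than in wild type. In Er71-/- cells 4 of the 6 endothelial markers were at least 2-fold lower and the sum was 225, against 1881 in wild type, and all 6 lay below the detection level there. Of 6 markers of undifferentiated ES cells, Dppa4 and Utf1 passed 2-fold upward with doxycycline (summed intensity 1335, against 868 without it) and Nanog did in Er71-/- cells (853, against 578 in wild type). The 6 did not move together, and Nanog was 1.39-fold lower with doxycycline. In Er71-/- cells Pou5f1 was 1.72-fold higher than in wild type, and Dppa4 and Utf1 were 1.53-fold and 1.36-fold lower. Of 6 cardiac mesoderm markers, Gata4 was at least 2-fold lower with doxycycline (551, against 888 without it) and Isl1 at least 2-fold higher in Er71-/- cells (1228, against 991 in wild type). Isl1 was also 2.09-fold higher in untreated iER71 cells than in wild type, and Hand1, of the same list, was 2.01-fold lower. Against untreated iER71 cells, Isl1 and Nanog were 1.06-fold and 1.44-fold higher in Er71-/- cells, both short of 2-fold. Hand1 was 2.46-fold higher in Er71-/- cells than in untreated iER71 cells, and 1.23-fold higher than in wild type. Among 5 measured markers of Flk-1 mesoderm, Pdgfra and Mesp1 ran opposite in the pairs, as Frzb and Dact1 do below. Pdgfra was 5.17-fold lower with doxycycline and 2.51-fold higher in Er71-/- cells, and Mesp1 2.76-fold lower and 2.57-fold higher. Against untreated iER71 cells in place of wild type, Pdgfra and Mesp1 were 1.96-fold and 1.86-fold higher in Er71-/- cells. The summed intensity of the 5 was 2906 with doxycycline and 2606 without, and 2140 in Er71-/- cells and 2064 in wild type. Of 6 blood markers, none reached 2-fold with doxycycline (415, against 530 without it), and Hbb-y and Hba-x were 10.8-fold and 2.08-fold lower in Er71-/- cells (488, against 1126 in wild type). Hbb-y was also 8.48-fold lower in untreated iER71 cells than in wild type, with values under the detection level on all arrays but wild type. Of 5 measured endoderm markers, Sox7 was 2.98-fold higher with doxycycline and Cer1 2.58-fold lower (703, against 447 without it), and Sox7 was 2.45-fold lower in Er71-/- cells (237, against 334 in wild type). Foxa2, Afp and Ttr were at most 1.13-fold apart in either pair. The endoderm sums thus follow Sox7, which ran the same way in the pairs as the endothelial markers, and are no measure of endoderm alone. None of 5 neuroectoderm markers reached 2-fold in either pair (467 with doxycycline and 485 without, 622 in Er71-/- cells and 485 in wild type). The higher neuroectoderm sum in Er71-/- cells mostly follows Otx2, which was 1.88-fold higher there. Of 6 fibroblast feeder markers 3 were detected, and none of these reached 2-fold in either pair. Postn, not detected, was 2.82-fold lower in Er71-/- cells (feeder sums 583 with doxycycline and 494 without, 457 in Er71-/- cells and 513 in wild type). The higher feeder sum with doxycycline follows Thy1, which was 1.87-fold higher, while Col1a1 and Col1a2 were 1.17-fold and 1.04-fold lower. The part of such differences in cell makeup in the Wnt values was not tested, and in sorted bulk RNA fewer cells of a type and less RNA per cell cannot be told apart.

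A gene counts here as detected if its highest array reached the median of all deposited values, a log2 intensity of 6.16. Of the 62 Wnt genes 41 were detected, 33 of them on each of the 4 arrays and 8 (Dact1, Dact2, Dkk2, Sfrp1, Wnt2, Wnt3, Wnt4 and Wnt5a) on some arrays only. The 8 could pass through the arrays on which they are high, so the main counts are also given without this filter. Counts in both pairs, at 1.5-fold, against the other reference array and in the further lists are given with the filter only. With 1 array a group there is no replicate error and no test, and a gene is called higher or lower at a difference of at least 2-fold, which is 1 on the log2 scale.

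Across the iER71 pair, 7 Wnt genes were at least 2-fold lower with doxycycline (titled control) than without it, and none was at least 2-fold higher. They were the ligand Wnt5a, the agonist Rspo3, the receptors Fzd7 and Lgr5, the secreted inhibitor Frzb, the intracellular regulator Dact1 and the nuclear factor Lef1, so activators and inhibitors of the pathway were among them. The 7 are 17.1% of the 41 detected members, where 1.23% of all 8843 detected genes were lower by this size and 2.41% were higher. Without the detection filter they are 11.3% of 62 members, beside 0.929% of all 14860 genes for lower and 1.73% for higher. Between Er71-/- and wild-type cells, Frzb and Dact1 were at least 2-fold higher in Er71-/- cells, and Lgr5 and Rspo3 were at least 2-fold lower. That is 4.88% of detected members each way, beside 0.43% of detected genes for higher and 1.58% for lower. Without the filter it is 3.23% of members each way, beside 0.525% and 1.32% of all genes.

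The arrays labelled as without induction or deletion are untreated iER71 (titled ER71 overexpressed) and wild type. With 1 array each, line, culture and array cannot be told apart in the differences between them. Frzb was at least 2-fold higher in untreated iER71 cells than in wild type, and Fzd4 was at least 2-fold lower. Each is 2.44% of detected members, beside 0.441% of detected genes for higher and 0.554% for lower, and without the filter 1.61% of members, beside 0.653% and 0.633% of all genes. With the wild-type array in place of the untreated iER71 array, 7 detected members were lower with doxycycline (1.47% of detected genes) and none higher (2.63%), with Wnt2 in place of Lef1. With untreated iER71 in place of wild type, Dact1 alone was higher in Er71-/- cells (0.486% of detected genes) and Lgr5 alone lower (1.19%). These comparisons share arrays with the others. Many deposited values are exactly equal on several arrays: 14 of the 62 members had the same value on both arrays of the iER71 pair, 14 on both of the Er71 pair and 21 on untreated iER71 and wild type. On all 4 arrays 6 members had 1 value, among them Axin1, Dvl1 and Wnt10b. A median difference near 0 is therefore partly made of such ties.

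**Figure D1:**
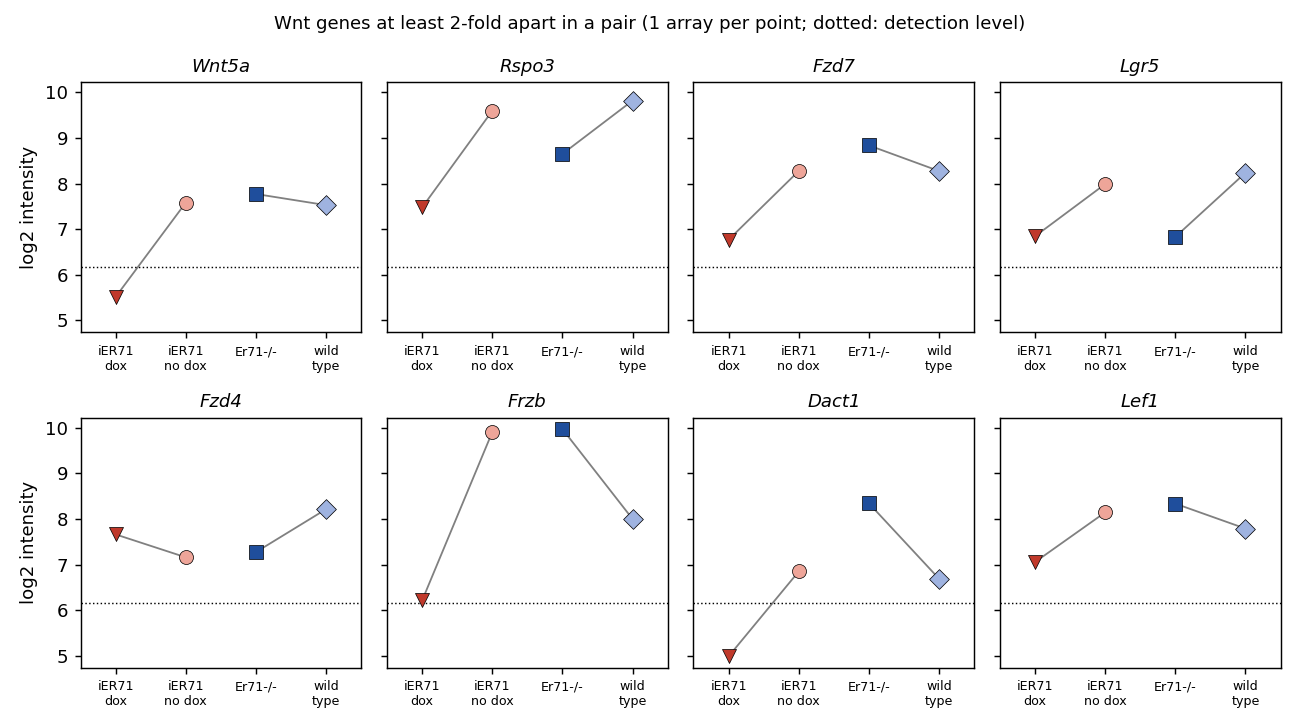
Log2 intensity (vertical axis) on each array for the 8 Wnt genes that were at least 2-fold apart in the iER71 pair, in the Er71 pair or between untreated iER71 and wild type. Each point is 1 array, lines join the arrays of a pair and the dotted line is the detection level of 6.16. Apart from Fzd4, the iER71 array with doxycycline lies below the untreated one in each panel, and Dact1 and Wnt5a lie under the detection level there.

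The promoters of Frzb, Fzd7 and Dact1 are shown, picked from the genes called lower with doxycycline that have a sequence in the table at hand. Lef1 is also such a gene, and its promoter is not shown. They are the RefSeq promoters of build GRCm38.p6, from 250 bases before the start of transcription to 50 after it. The Frzb promoter is chr2:80447347-80447646 on the minus strand, that of Dact1 is chr12:71309634-71309933 and that of Fzd7 is chr1:59481897-59482196, both on the plus strand. Capitals mark GGAA, the core that ETS factors bind, and its reverse complement TTCC, as well as TCAAAG, the reverse complement of the TCF/LEF motif CTTTGA.
Frzb: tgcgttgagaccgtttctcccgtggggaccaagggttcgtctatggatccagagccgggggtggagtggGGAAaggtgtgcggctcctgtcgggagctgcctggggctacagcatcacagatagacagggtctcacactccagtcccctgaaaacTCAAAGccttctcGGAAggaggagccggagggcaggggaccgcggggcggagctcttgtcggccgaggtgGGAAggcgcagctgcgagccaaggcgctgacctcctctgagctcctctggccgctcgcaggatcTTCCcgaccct
Dact1: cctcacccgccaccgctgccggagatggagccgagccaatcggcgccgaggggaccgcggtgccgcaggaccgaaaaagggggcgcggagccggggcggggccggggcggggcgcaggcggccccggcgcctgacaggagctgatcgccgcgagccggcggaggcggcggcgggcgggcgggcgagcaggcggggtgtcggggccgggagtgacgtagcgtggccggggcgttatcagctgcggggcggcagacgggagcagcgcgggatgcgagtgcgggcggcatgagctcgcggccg
Fzd7: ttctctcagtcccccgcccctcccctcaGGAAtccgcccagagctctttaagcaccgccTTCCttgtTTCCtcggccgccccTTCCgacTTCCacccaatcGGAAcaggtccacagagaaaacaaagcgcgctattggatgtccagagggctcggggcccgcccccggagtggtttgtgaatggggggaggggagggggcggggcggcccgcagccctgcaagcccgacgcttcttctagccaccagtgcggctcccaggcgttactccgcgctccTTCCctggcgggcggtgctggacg
The Fzd7 promoter held 7 matches to GGAA on either strand, the Frzb promoter 4 and the Dact1 promoter 0, although Dact1 and Frzb lay on the same side of 2-fold in both pairs. Over 32851 promoters of the table the median was 3 matches, 8.02% held 7 or more and 4.02% held none. The Frzb promoter had its only TCAAAG 95 bases upstream of the start. CTTTGA on either strand occurs in 16.0% of all promoters and in 7 of 49 promoters of the 41 members that have one in the table, those of Frzb, Fzd1, Gsk3b, Lef1, Sp5, Wnt11 and Wnt5b. The longer ETS motif CCGGAA, either strand, occurs in 14.9% of all promoters and in those of Dvl3, Fzd10 and Wnt11 among members. GGAA and CCGGAA overlap by construction, and TTCC can share its last base with CTTTGA, as TCAAAG can with GGAA. A match is a description of the letters and not a binding site.

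Among the 19 ligands, 10 were detected, and 9 of these were lower with doxycycline than without it by some amount, beside 39.1% of all detected genes, with Wnt10b equal. Wnt2, Wnt3, Wnt4 and Wnt5a, under the detection level on the doxycycline array, passed through other arrays. Without the filter 14 of 19 ligands were lower, beside 38.3% of all genes. The median difference of the 10 was -0.34 on the log2 scale, where the median of all detected genes was 0. Wnt5a, which acts mainly through Ror2 and Frizzled receptors in polarity and movement of mesoderm, had a log2 intensity of 5.52 with doxycycline and 7.58 without it, and of 7.77 in Er71-/- cells and 7.53 in wild type. The doxycycline array was the low one, and the other three lay within 0.24 of each other. Wnt5a was 4.19-fold lower with doxycycline than without it, and since it lay under the detection level there the size of the fold is uncertain.

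Wnt2, a ligand known for its part in early heart and vessel development, differed in steps over the arrays. Its log2 intensity was 5.21 with doxycycline, 6.02 without, 6.38 in Er71-/- cells and 6.83 in wild type. The difference with doxycycline was 1.76-fold and stayed short of the call, and the untreated iER71 array was itself 1.75-fold below wild type. Against wild type the doxycycline array was 3.07-fold lower, and since both iER71 values lie under the detection level the sizes of these folds are uncertain. Wnt3, the ligand that mouse embryos need to start gastrulation, had 5.99 with doxycycline, 6.56 without, 6.56 in Er71-/- cells and 6.55 in wild type. Here too the doxycycline array stood below 3 nearly equal values, by less than the call size.

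Wnt5b, a relative of Wnt5a, had 6.33 with doxycycline and 6.75 without, and 7.02 in Er71-/- cells and 6.75 in wild type. Wnt11, a non-canonical ligand, was highest without doxycycline at 6.91 and lay at 6.63 with it, 6.58 in Er71-/- and 6.61 in wild-type cells. Of the rest, Wnt2b, Wnt4, Wnt9a and Wnt10a differed by less than 2-fold in each pair. The 9 ligands that were not detected (Wnt1, Wnt3a, Wnt6, Wnt7a, Wnt7b, Wnt8a, Wnt8b, Wnt9b and Wnt16) lay between 4.50 and 6.10, and none varied by more than 0.38 over the arrays. Porcn, the enzyme that puts the lipid on Wnt ligands, had the same value of 6.11 on each array.

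Rspo3 is a secreted agonist that binds Lgr receptors and keeps Frizzled receptors on the cell surface, and the mouse gene is needed for blood vessels to form. Its log2 intensity was 7.48 with doxycycline and 9.60 without it, and 8.65 in Er71-/- cells and 9.82 in wild type. The untreated iER71 and wild-type arrays were the high ones and lay 0.22 apart. Rspo3 was 4.34-fold lower with doxycycline than without and 2.25-fold lower in Er71-/- cells than in wild type. Both the doxycycline and the Er71-/- array were thus below the array they are set against. This pattern was shown past 2-fold by 2 of 41 detected members (4.88%), beside 4 of 8843 detected genes (0.0452%). Rspo1 stayed between 6.58 and 6.60 on the 4 arrays, and Rspo2 and Rspo4 were not detected.

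Lgr5, a receptor for R-spondins and in many tissues a Wnt target gene, was another of those 4. It had a log2 intensity of 6.84 with doxycycline and 7.99 without it, and of 6.83 in Er71-/- cells and 8.24 in wild type. The low values on the doxycycline and Er71-/- arrays were nearly equal, as were the high values on the other arrays. The differences were 2.21-fold with doxycycline and 2.65-fold in Er71-/- cells. Against the untreated iER71 array in place of wild type, Lgr5 was still 2.23-fold lower in Er71-/- cells, and Rspo3 was 1.93-fold lower, short of the call.

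Fzd7, the Frizzled receptor best known from ES cells and mesoderm, had log2 intensities of 6.77 with doxycycline and 8.28 without it, and of 8.84 in Er71-/- cells and 8.28 in wild type. The untreated iER71 and wild-type arrays held the same deposited value, with the doxycycline array 2.84-fold below and the Er71-/- array 1.48-fold above it. Fzd4, a receptor that in mouse retina vessels answers Norrin as well as Wnt ligands, had 7.66 with doxycycline and 7.16 without, and 7.27 in Er71-/- cells and 8.22 in wild type. Wild type was the high array. Fzd4 was 1.92-fold lower in Er71-/- cells than in wild type, just short of the call, and 2.08-fold lower in untreated iER71 cells than in wild type, just past it. The Er71-/- value thus lay 0.12 on the log2 scale above that of untreated iER71 cells.

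Of the other receptors, Fzd3 lay between 8.25 and 8.37 on the 4 arrays, and the co-receptor Lrp6 at 8.41 with doxycycline, 8.32 without, 8.29 in Er71-/- cells and 8.16 in wild type. Fzd1, Fzd5, Fzd10 and the co-receptor Lrp5 varied by at most 0.48. Fzd2, Fzd6 and Fzd8 were not detected. Over the 9 detected receptors the median difference was -0.04 with doxycycline and 0 in Er71-/- cells.

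Frzb, a secreted protein with a Frizzled-like domain that binds Wnt ligands away from their receptors, had the most negative difference with doxycycline of all 8843 detected genes. Its log2 intensity was 6.21 with doxycycline and 9.91 without it, and 9.97 in Er71-/- cells and 8.00 in wild type. Doxycycline was the low array, just above the detection level, and Er71-/- and untreated iER71 were both high. Frzb was 12.9-fold lower with doxycycline than without and 3.92-fold higher in Er71-/- cells than in wild type. Untreated iER71 cells exceeded wild type by 3.75-fold, about as much as Er71-/- cells did, and between Er71-/- and untreated iER71 cells the difference was 1.05-fold. Against wild type, the doxycycline array was 3.45-fold lower.

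Sfrp1, a related secreted inhibitor, had 6.10 with doxycycline and 6.87 without, and 6.84 in Er71-/- cells and 6.81 in wild type, so that the doxycycline array alone was low, by 1.71-fold. Sfrp2 lay between 6.94 and 7.03 and Dkk2, which binds Lrp co-receptors, between 6.13 and 6.17. Dkk3, Dkk4, Notum, Sfrp4, Sfrp5 and Wif1 were not detected, with values from 5.02 to 6.04. Of these, Sfrp5 varied most, by 0.67, with 5.37 on the doxycycline array and 6.04 on the untreated one.

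Dact1, an intracellular partner of Dishevelled that modulates Wnt signals, ran opposite in the 2 pairs. It had a log2 intensity of 4.99 with doxycycline and 6.85 without it, and of 8.35 in Er71-/- cells and 6.69 in wild type. The untreated iER71 and wild-type arrays lay 0.16 apart, the doxycycline array below them and the Er71-/- array above. Dact1 was 3.64-fold lower with doxycycline, a size made uncertain by a value under the detection level, and 3.15-fold higher in Er71-/- cells. It was 2.82-fold higher in Er71-/- cells than in untreated iER71 cells, so the difference held against either array, whereas that of Frzb did not. Frzb and Dact1, 2 of 41 detected members (4.88%), were lower with doxycycline and higher in Er71-/- cells past 2-fold in both pairs. Of 8843 detected genes 14 (0.158%) were so. No Wnt gene showed the reverse, which 55 genes (0.622%) did.

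Axin2 and Nkd1, negative feedback regulators that Wnt signalling itself induces in many tissues, had their lowest values with doxycycline. Axin2 had 7.06 with doxycycline and 7.73 without, and 7.53 in Er71-/- cells and 7.38 in wild type. Nkd1 had 7.29 with doxycycline and 7.96 without, and 7.98 in Er71-/- cells and 7.96 in wild type. Both were 1.59-fold lower with doxycycline, short of the call.

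β-catenin itself (Ctnnb1) had 10.41 with doxycycline and 10.16 without, and 10.00 in Er71-/- cells and 10.14 in wild type. Gsk3b, the kinase that marks β-catenin for destruction, had 9.76 with doxycycline and 9.55 without, and 9.50 in Er71-/- cells and 9.62 in wild type. Apc, a scaffold of the same complex, had 8.18 with doxycycline and 7.77 without, and 7.68 in Er71-/- cells and 7.77 in wild type. These 3 genes were highest with doxycycline and lowest in Er71-/- cells, by at most 0.50 over the 4 arrays. The Dishevelled genes Dvl1, Dvl2 and Dvl3, Axin1, Dact2 and Nkd2 differed by less than 2-fold in each pair.

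Lef1, a nuclear partner of β-catenin that Wnt signalling also induces, had log2 intensities of 7.05 with doxycycline and 8.14 without it, and of 8.34 in Er71-/- cells and 7.79 in wild type. It was 2.13-fold lower with doxycycline, the smallest difference among the 7 called genes, and 1.46-fold higher in Er71-/- cells. Against wild type, the doxycycline array was 1.67-fold lower, which is short of the call. The related Tcf7l1, which mostly represses, had 8.12 with doxycycline and 7.91 without, and 7.91 in Er71-/- cells and 7.87 in wild type. Tcf7l2 had 8.42 with doxycycline and 8.36 without, and 8.56 in Er71-/- cells and 8.11 in wild type. Sp5, a zinc-finger gene that is a direct Wnt target in the mouse embryo, lay between 6.68 and 6.74 and so varied little over the 4 arrays.

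**Figure D2:**
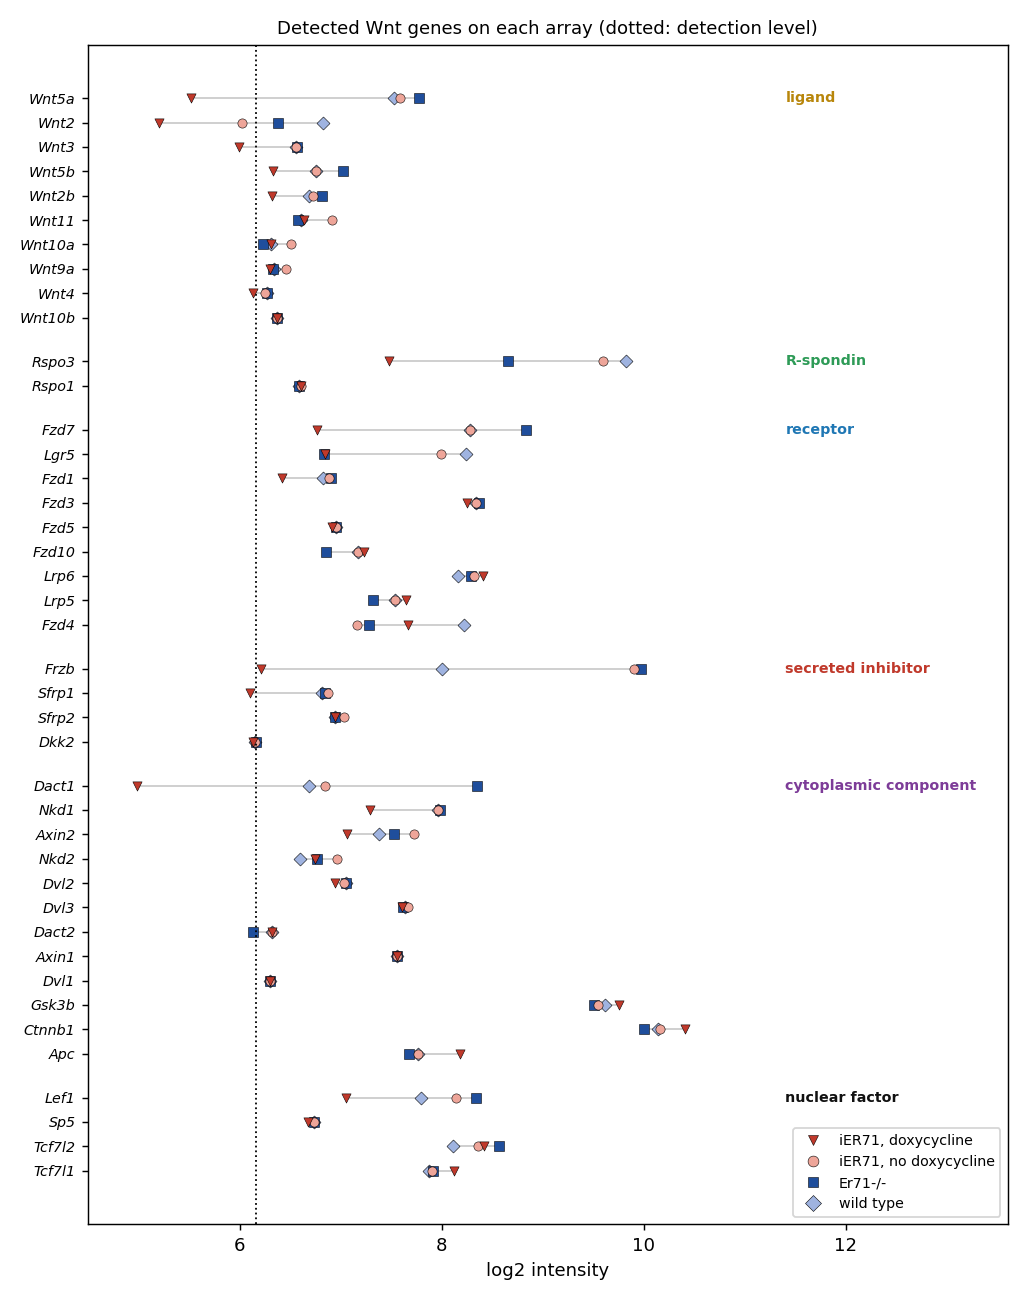
Log2 intensity (horizontal axis) of the 41 detected Wnt genes on the 4 arrays, in groups by role, with 1 symbol per array and the detection level of 6.16 dotted. The triangles of the doxycycline array lie strictly left of the other arrays for 22 genes, and for Ctnnb1, Gsk3b, Apc, Lrp5, Lrp6, Fzd10 and Tcf7l1 they lie rightmost.

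Counted over detected members, the doxycycline array was strictly the lowest of the 4 for 22 of 41 (53.7%), beside 26.8% of all detected genes, and strictly the highest for 7 (17.1%), beside 29.6%. The Er71-/- array was strictly the highest for 13 of 41 (31.7%), beside 17.7% of detected genes, and strictly the lowest for 10 (24.4%), beside 29.5%. Of the 22, Dact1, Dkk2, Sfrp1, Wnt2, Wnt3, Wnt4 and Wnt5a were under the detection level with doxycycline and passed only through other arrays. Over all 62 members without the filter, the doxycycline array was strictly the lowest for 28 (45.2%), beside 23.8% of all genes, and strictly the highest for 8 (12.9%), beside 23.8%. The Er71-/- array was then strictly the highest for 15 (24.2%), beside 14.7%, and strictly the lowest for 15, beside 26.8%. Of the 22 members lowest with doxycycline, most differed by less than 2-fold. Over all 41 detected members, those at least 1.5-fold lower with doxycycline were the 7 called genes and Wnt2, Sfrp1, Axin2 and Nkd1. They were 11 in all (26.8%), beside 3.17% of detected genes, and include Lgr5, which was lowest in Er71-/- cells and is not among the 22. None was 1.5-fold higher, as 6.31% of detected genes were.

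**Figure D3:**
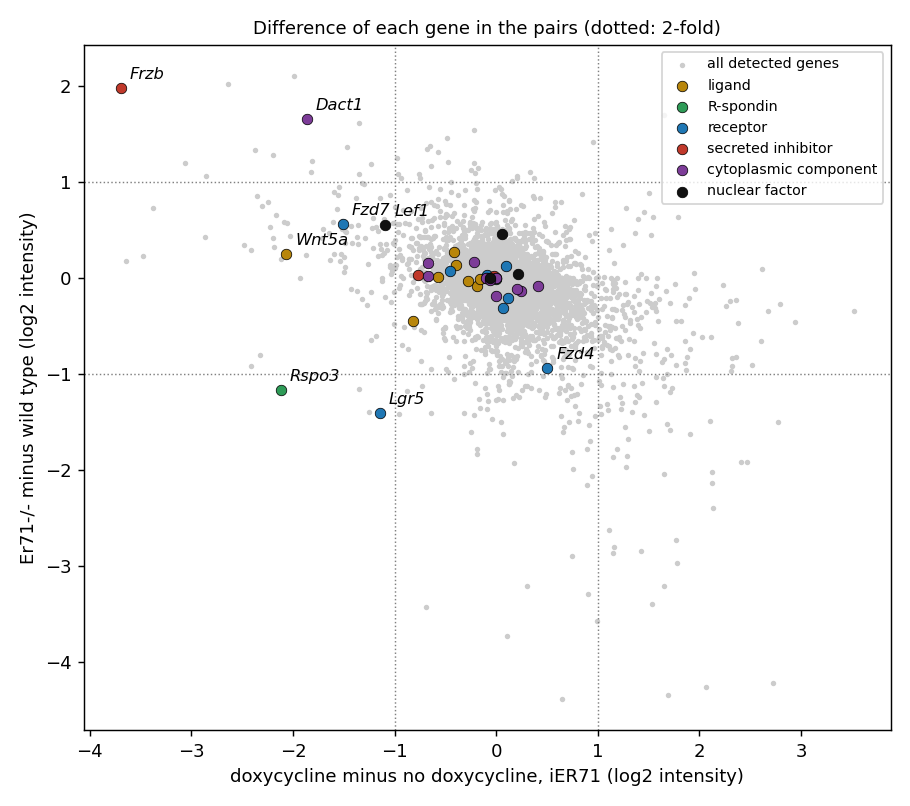
Difference in log2 intensity of each detected gene with doxycycline minus without it (horizontal) and in Er71-/- minus wild type (vertical), with Wnt genes coloured by role and the other genes in grey. Frzb and Dact1 lie at upper left, Rspo3 and Lgr5 at lower left, and no Wnt gene lies beyond the right-hand 2-fold line.

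Further pathway genes were taken from 4 lists by function, which were chosen with earlier results of these data known. The shares of all detected genes given beside counts in these lists are therefore no independent test. Of 9 detected genes for non-canonical receptors and planar polarity, such as Ror2, Ryk, Ptk7 and Vangl2, none reached 2-fold in either pair, and neither did any of 20 detected kinases and nuclear cofactors. Among these cofactors, the corepressor gene Tle3 differed most with doxycycline, with 7.01 against 7.79 without it, and had 8.29 in Er71-/- cells and 8.07 in wild type. Against wild type, Tle3 was 2.08-fold lower with doxycycline, past the call size. Of 10 detected membrane and extracellular modulators, 3 were at least 2-fold lower with doxycycline (1.23% of all detected genes were) and none higher (2.41%). The undetected Dkkl1, Rnf43 and Sostdc1 were under 2-fold apart. Gpc3, a glypican that binds Wnt and other ligands at the cell surface, had 8.54 with doxycycline and 10.95 without, and 11.10 in Er71-/- cells and 10.81 in wild type. It was 5.33-fold lower with doxycycline, and the other three arrays were close together. Its relative Gpc4 had 5.24 with doxycycline and 6.31 without, and 6.47 in Er71-/- cells and 6.17 in wild type. Against wild type, Gpc4 was 1.90-fold lower with doxycycline, short of the call. Cer1, a secreted antagonist of Nodal, BMP and Wnt ligands, had 5.84 with doxycycline and 7.21 without, and 5.68 in Er71-/- cells and 5.82 in wild type, so that untreated iER71 was the high array. Wls, which carries Wnt ligands to the cell surface, had 8.76 with doxycycline and 9.53 without, and 9.83 in Er71-/- cells and 9.52 in wild type, a difference of 1.70-fold with doxycycline.

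In the list of Wnt target genes of early mesoderm, 6 of 13 detected genes were at least 2-fold lower with doxycycline and none higher, beside 1.23% and 2.41% of all detected genes. As this list too was chosen with earlier results known, the count describes its genes only. Against wild type in place of untreated iER71, Mixl1, Eomes and Tnfrsf19 were still at least 2-fold lower with doxycycline. Msgn1 (1.88-fold), Mesp1 (1.997-fold) and Cyp26a1 (1.47-fold) then fell short of the call. In Er71-/- cells 1, Mesp1, was at least 2-fold higher, beside 0.43%, and none lower, beside 1.58%. Of the 17 genes measured, Cdx1, Cdx4, Snai1 and Sp8 were not detected. They were under 2-fold apart with doxycycline, and Cdx4 was 2.24-fold higher in Er71-/- cells. The median difference of the 13 was -0.53 with doxycycline and 0.02 in Er71-/- cells. Msgn1, a presomitic mesoderm factor, had 4.70 with doxycycline and 6.89 without, and 6.03 in Er71-/- cells and 5.61 in wild type. Mixl1, a homeobox gene of the primitive streak, had 8.85 with doxycycline and 10.88 without, and 10.55 in Er71-/- cells and 10.11 in wild type. Both were thus highest on the untreated iER71 array, as was Cyp26a1 (9.20, against 8.28 in wild type).

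Eomes, a T-box gene of the streak, had 7.43 with doxycycline and 9.03 without, and 9.34 in Er71-/- cells and 8.76 in wild type. Mesp1, which marks early cardiac mesoderm, had 5.98 with doxycycline and 7.44 without, and 8.33 in Er71-/- cells and 6.97 in wild type. For both genes doxycycline was the low array and Er71-/- the high one, as for Lef1 and Fzd7. Cyp26a1, the enzyme that clears retinoic acid, was 2.78-fold lower with doxycycline. Tnfrsf19, a receptor gene, was 2.17-fold lower, an uncertain size because its value with doxycycline (5.95) lay under the detection level. The values of Msgn1, Mesp1, Gpc4 and Cer1 lay under it there too, and these genes and Tnfrsf19 passed the filter through other arrays only. The targets Myc (8.80 with doxycycline, 9.34 without) and Ccnd1 (9.17 with, 9.66 without) were under 2-fold apart. Mesp1, Eomes and Mixl1 answer to other signals as well, Nodal among them, so their values are not a measure of Wnt signalling alone.

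**Figure D4:**
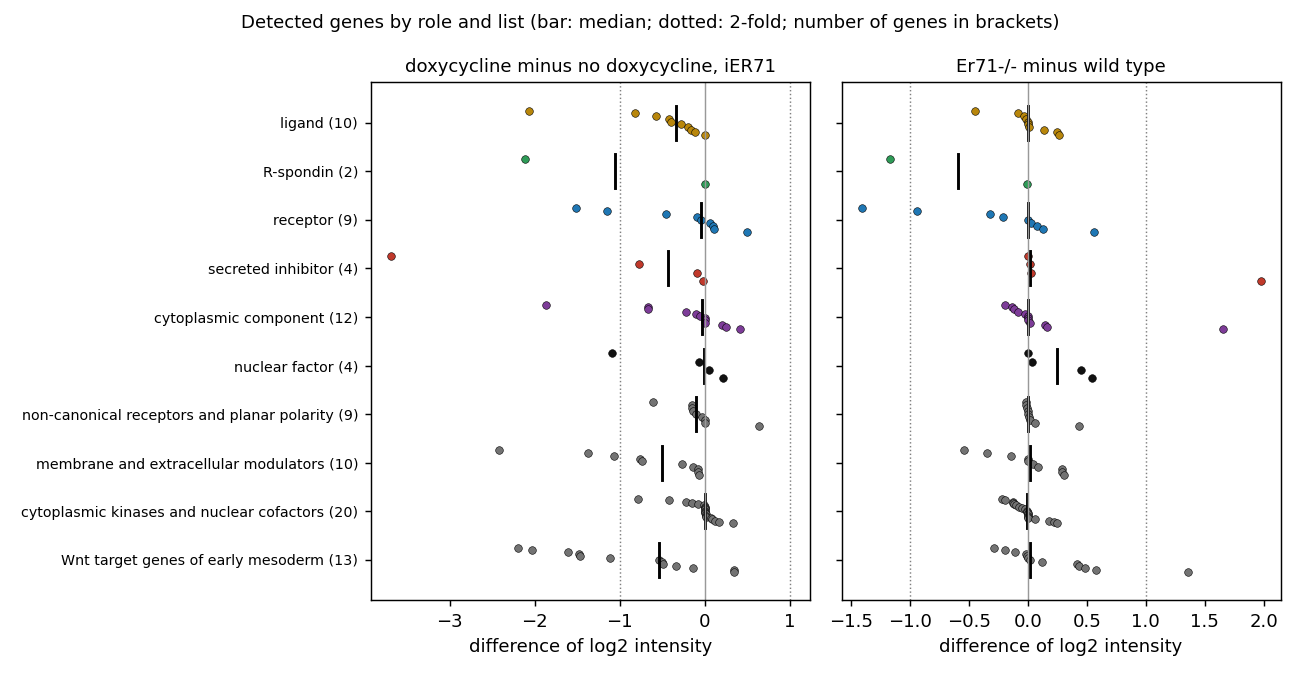
Difference in log2 intensity with doxycycline minus without it (left) and in Er71-/- minus wild type (right) for detected Wnt genes by role and for the 4 further lists, with 1 point per gene and a bar at the median. Modulators and target genes have medians of -0.50 and -0.53 in the left panel and 0.02 each in the right panel.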

How the data were processed

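The values deposited by the authors are intensities on a linear scale, for 23332 probe sets on 4 Affymetrix arrays with 1 array a group. Per the submitters' processing notes, the tools were RMA and Affymetrix Expression Console with the build mm8, in no stated order and with no version. Because RMA output is commonly in log2 and these values are linear, log2 was taken of them here. RNA had been amplified before labelling, per the labels' protocols, which can compress or distort differences of low genes. The number of arrays limits the precision.

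Probe sets with exactly 1 symbol in the platform annotation (14996; 1019 have several and 7317 none) gave 14860 genes, each by its brightest probe set. Detection was set at the median of all values and the call at 2-fold. Groups follow the doxycycline and genotype labels. The members and lists were chosen with earlier results of these data known. Genes are given in full if called in any comparison or within 0.2 log2 of the call size, with the 2 brightest others per role; the remaining ones named were chosen after their values were seen.

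Alternatives were median centring, quantile normalization and cyclic loess (limma 3.58.1, R 4.3.3), an offset of 32, other detection filters, the mean over probe sets, a 1.5-fold call, the direction of the titles, and, chosen after seeing the data, the other unperturbed array as reference and the GGAA core. Python 3.11.15, numpy 2.4.6 and pandas 2.3.3 were used.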

Additional observations from a re-analysis of the deposited data

How the results depend on the processing

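With 1 array a group nothing can be left out, and no sampling or culture error is known. No paired analysis was possible because each group has a single array. By the titles, 7 Wnt genes were at least 2-fold higher and 0 lower on the array titled ER71 overexpressed. Frzb and Dact1 then ran the same way in both pairs, and Lgr5 and Rspo3 opposite ways. With the 1.5-fold call 11 were lower with doxycycline, and 2 (Fzd4 and Wnt2) were lower in untreated iER71 than in wild type. The count lower in untreated iER71 than in wild type was 0 after quantile normalization (Fzd4 at -0.996 on the log2 scale, just short of the call) and with the offset of 32. With that offset Lef1 and Lgr5 were short of the call with doxycycline (-0.93 and -0.96), Dact1 moved to -1.21, against -1.86 without the offset, 5 genes were left, and the members past 2-fold the same way in both pairs were 1, Rspo3. Against untreated iER71 cells in place of wild type, 1 gene (Dact1) was higher and 1 (Lgr5) lower in Er71-/- cells, each against 2 in the comparison with wild type. Against wild type in place of untreated iER71, 7 genes were again lower with doxycycline, with Wnt2 in place of Lef1. Of 120 recomputed differences of the 8 named genes, 116 kept their side of 2-fold, 4 (Fzd4 under 2 settings, Lef1 and Lgr5) fell short of it and none changed sign. Of the 65 that started past 2-fold, 60 kept the call within 1.5 times of their size, and Dact1 with the offset kept it with a larger move. Both tallies include the mean over probe sets, which gave 24 of the 120 differences. Each member has 1 probe set, so these 24 could not change and say nothing about stability.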

Other observations

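Daam1 and Daam2, formins that act downstream of Dishevelled in the polarity branch, differed in opposite directions, both under 2-fold. Daam1 had a log2 intensity of 7.84 with doxycycline and 7.20 without, and 7.64 in both Er71-/- and wild-type cells. Daam2 had 5.56 with doxycycline and 6.17 without, and 6.72 in Er71-/- cells and 6.29 in wild type. Apcdd1, a membrane inhibitor of Wnt signalling, had 8.73 with doxycycline and 9.47 without, and 9.55 in Er71-/- cells and 10.09 in wild type, so that wild type was its high array, as it was for Fzd4, Lgr5, Rspo3 and Wnt2. These genes were picked out after their values were seen.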
